A study of Mus musculus with 9 samples.

Results

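The comparison set all livers lacking Mttp against livers that kept it, to find the transcripts that moved the same way whether or not Fabp1 was also lost. Of the 9 libraries in the series, 6 came from Mttp-deleted livers and 3 from controls, and all 9 entered the comparison. The controls were floxed Mttp mice (Mttp f/f). The deleted pools were 3 of MttpLKO mice, with Mttp deleted in the liver alone, and 3 of Fabp1 Mttp DKO mice (DKO here), which carry that liver deletion and a germline deletion of Fabp1. All mice were male, C57BL/6J congenic and fed chow. All, controls included, had received diethylnitrosamine (DEN), a carcinogen activated in hepatocytes, at 25 mg per kg by intraperitoneal injection at 14 days of age, and livers were taken at 6 months. Each library is RNA pooled from 3 mice of 1 genotype. The sources used here give neither the Cre driver nor whether the tissue was tumour or non-tumour, and no group with Fabp1 loss alone was analysed here, so in DKO the 2 deletions cannot be told apart.

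Microsomal triglyceride transfer protein, the product of Mttp, sits in the endoplasmic reticulum (ER) of hepatocytes and loads lipid onto nascent apolipoprotein B. Without it the liver secretes little very low density lipoprotein (VLDL) and stores triglyceride in lipid droplets. Fabp1 encodes the abundant cytosolic fatty acid-binding protein of hepatocytes.

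A common change was a gene that passed edgeR's quasi-likelihood test for the mean of the MttpLKO and DKO effects (Benjamini-Hochberg adjusted p under 0.05) and in which all 6 deleted pools lay above, or all 6 below, all 3 controls. Levels are CPM (a gene's counts divided by its library's total, TMM-scaled), and folds and log2 fold changes are deleted minus control from the fit. Total counts were 24995426 to 27080442 in control, 26362408 to 27918197 in MttpLKO and 23268389 to 23429588 in DKO, so the DKO pools were shallower than all others. All 14 defining hepatocyte markers had counts in all 9 pools. Their sum was lowest in DKO replicate 1, at 87490 CPM against 114700 to 132100 in the other pools. MttpLKO replicate 3 stood apart, at 41.7 on the first principal component against -15.2 to 5.4 for the other 8 pools. Its summed B, plasma, T and NK cell genes reached 659.6 CPM against 34.5 to 60.0 in the other deleted pools. In bulk RNA, fewer cells of a type and less RNA per cell cannot be told apart. The labels describe the replicates as separate pools, and p-values measure the spread between pools, which is narrower than that between single mice.

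Mttp itself fell in every deleted pool. The control pools held 180.9, 80.4 and 69.8 CPM, the MttpLKO pools 9.72, 6.15 and 6.23, and the DKO pools 5.78, 3.26 and 4.50. All 6 deleted pools lay far under the lowest control, and control replicate 1 stood well above the other controls. The fall was 19.1-fold (log2 -4.26 ± 0.30 SE, edgeR adjusted p = 6.1e-05), and MttpLKO and DKO did not differ past the test (DKO minus MttpLKO log2 -0.70, edgeR adjusted p = 0.62). The exons behind the remaining reads cannot be read from a sum over the whole gene. Fabp1 met the same rule, by unequal amounts in the genotypes. It stood at 6850, 6100 and 6270 CPM in control, 3358, 4002 and 4954 in MttpLKO and 50.3, 68.0 and 77.5 in DKO, where it is deleted. Its MttpLKO values lay under all controls but did not pass the test alone (log2 -0.64, edgeR unadjusted p = 0.0049, adjusted p = 0.34). The pooled value mixes this fall with the deletion in DKO, and whether Mttp loss alone lowers Fabp1 is not settled here.

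Of 14192 genes tested, 42 (0.296%) were called, 28 higher (0.197%) and 14 lower (0.0986%). The common changes were 34 (0.24%), 22 of them higher (0.155%) and 12 lower (0.0846%), the 2 deleted genes included. Without the call, 646 genes (4.55%) had all 6 deleted pools beyond all 3 controls, 292 above (2.06%) and 354 below (2.49%). Without MttpLKO replicate 3, with 1 pool fewer to separate, these were 473 and 513. At an unadjusted p under 0.05 there were 1292 genes (9.1%), and the median log2 fold change of all genes was -0.004. Positive fold changes made up 49.0%, and these shares are the background for the list counts below. Of the 34, 6 rises (Gh, Hoxc8, Erich4, Kif5c, Gucy2c and Wfdc12) passed the filter on low counts through deleted pools alone. The 3 falls Naip6, Asic3 and 1010001B22Rik passed it through control pools alone. A gene that passes so had to differ, and the other 25 passed with pools of both kinds. Among these, Cacna1b, Gprc5a and Miox had 1 control pool past the filter's level and Igdcc4 had 2. Since 3 libraries were required, these rises also needed the deleted pools to pass. Clec2h passed in 3 control and 2 DKO pools, so this fall needed the controls. The list of common changes rested on the small control group. It held 12, 10 and 8 genes without control replicate 1, 2 and 3 and 20 without DKO replicate 3, and 10 when the 6 deleted pools were fitted as 1 group. DESeq2 gave 144, of which 33 were among these 34. Gh, Mttp, Rpl34 and Slc16a5 were called under each of the 19 alternatives run, while 30 were not called under 1 alternative or more.

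**Figure D1:**
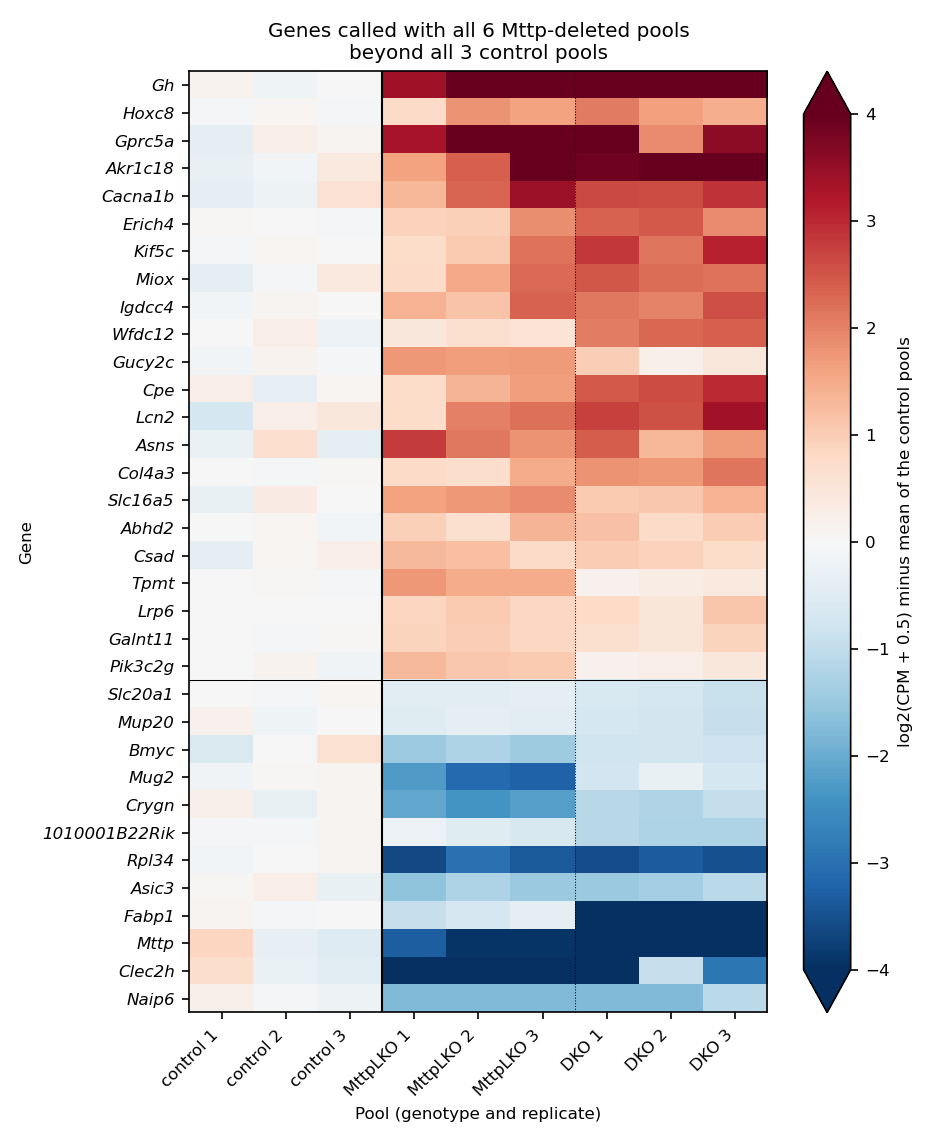
Heat map of the 34 common changes (rows) in the 9 pools (columns), each cell the log2(CPM + 0.5) minus the mean of the 3 control pools, with the colour scale ending at -4 and 4. The 22 genes above the horizontal line are redder in all 6 deleted pools than in any control, and the 12 below it are bluer; Fabp1, Mug2, Tpmt and Pik3c2g differ visibly between MttpLKO and DKO.

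The largest rise was in reads assigned to Gh, the growth hormone gene, normally a product of the pituitary. The controls held 0.121, 0 and 0.0727 CPM, the MttpLKO pools 5.43, 17.1 and 14.0, and the DKO pools 15.3, 17.7 and 11.8. Every deleted pool was above 5 CPM and no control reached 1. Over all pools this was 2046 counts in deleted and 5 in control livers, a depth-scaled ratio of 212 (95% exact counting interval 90.9 to 655), and edgeR gave adjusted p = 0.00024. DKO and MttpLKO were close (log2 difference 0.29, edgeR adjusted p = 0.85). The other pituitary hormone genes had few or no counts. Prl, Lhb and Fshb had 0 counts in all 9 pools, Cga had 1 and Tshb 4 in control and 0 in deleted pools, and Pomc had 16 in control and 26 in deleted pools. Gene totals do not show which part of Gh (chromosome 11, 106300271 to 106301865) the reads cover, so expression of the mouse's own Gh gene and reads from a stretch of growth hormone sequence carried elsewhere, as in a transgene, cannot be told apart.

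No other gene of growth hormone signalling passed the test. Of 18 tested genes of growth hormone signalling Gh was the only one called by edgeR, DESeq2 or limma-voom, and the list's median log2 fold change was 0.098 (0.010 without MttpLKO replicate 3). Igf1, the main hepatic target of the hormone, stood at 686, 617 and 695 CPM in control, 663, 723 and 798 in MttpLKO and 627, 702 and 681 in DKO. The groups overlapped and the difference was 0.07 ± 0.10 SE on the log2 scale (edgeR adjusted p = 0.89). Ghr, which encodes the receptor, differed by -0.11 (edgeR adjusted p = 0.83).

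**Figure D2:**
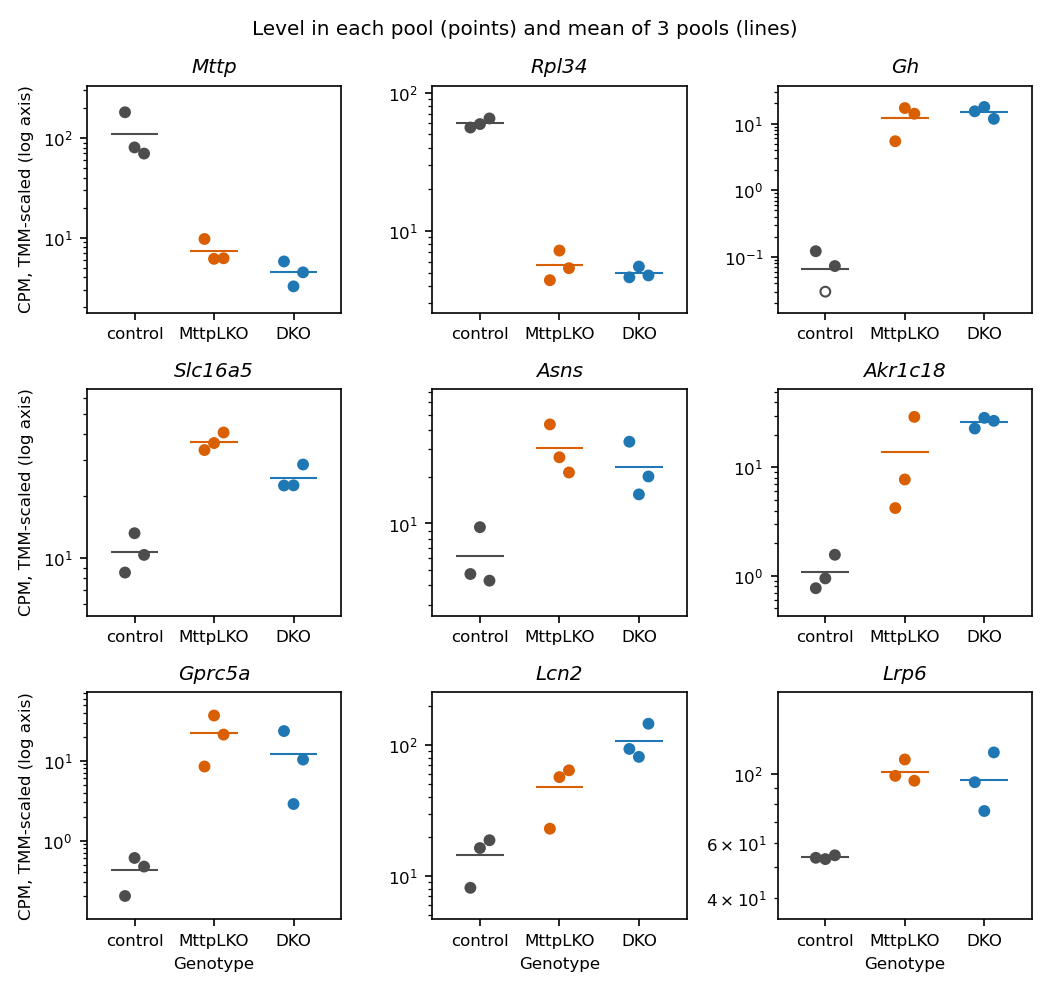
CPM (log axis, TMM-scaled) of 9 common changes in each pool (points) by genotype, with the mean of 3 pools as a line; an open point drawn at the foot of the Gh panel is a pool with 0 counts. In each panel no deleted pool overlaps a control, and the distance is widest for Gh, where controls hold 0 to 0.121 CPM and deleted pools 5.43 to 17.7.

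Markers of fetal liver and liver tumours rose in part. Of 38 tested members edgeR called 3, all higher and all common: Akr1c18, Gprc5a and Lcn2. The listed Nope, an older symbol of the common rise Igdcc4, was not matched by name and is not among the 38. DESeq2 called 8 higher and 1 lower and limma-voom 1 higher. In 11 members (28.9%, against 2.06% of all genes) all 6 deleted pools exceeded all controls, and in 1 they all lay below. Positive fold changes were found in 33 of 38 (49.0% of all genes). The list was chosen with earlier results of these data known, so these shares describe it and are no test. The list's median log2 fold change was 0.49, with 0.69 in MttpLKO and 0.58 in DKO, and was 0.38 without MttpLKO replicate 3. Summed extracellular matrix and stellate cell genes were 1825 to 2307 CPM in deleted pools and 1668 to 1845 in controls; their part in these values was not tested.

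Akr1c18, which encodes a hydroxysteroid dehydrogenase that inactivates progesterone, read 0.769, 0.947 and 1.56 CPM in control, 4.21, 7.73 and 29.2 in MttpLKO and 22.8, 28.6 and 26.9 in DKO. MttpLKO replicate 3 matched the DKO pools while the other MttpLKO pools were lower, and all exceeded the controls (17.1-fold, log2 4.10 ± 0.62 SE, edgeR adjusted p = 0.027). Gprc5a, an orphan G protein-coupled receptor gene induced by retinoic acid, read 0.202, 0.606 and 0.473 CPM in control, 8.47, 36.8 and 21.3 in MttpLKO and 23.5, 2.87 and 10.3 in DKO. It rose 37.9-fold, with a spread among deleted pools of more than 10-fold (log2 5.24 ± 0.83 SE, edgeR adjusted p = 0.033). Lcn2, which encodes lipocalin 2, a siderophore-binding protein of the acute phase, read 8.13, 16.4 and 18.8 CPM in control, 22.97, 56.9 and 64.1 in MttpLKO and 93.4, 81.2 and 145.4 in DKO. The rise was 4.95-fold (log2 2.31 ± 0.37 SE, edgeR adjusted p = 0.035), and the DKO pools were the highest, although DKO minus MttpLKO did not pass the test (log2 1.15, edgeR adjusted p = 0.36). All 3 calls were lost without any single control, where edgeR adjusted p was at most 0.168 for Akr1c18, 0.203 for Gprc5a and 0.166 for Lcn2. They were also lost without DKO replicate 3 (0.058, 0.062 and 0.062), Akr1c18 and Lcn2 without DKO replicate 1 (0.056 and 0.067) or 2 (0.059 and 0.055), and Lcn2 without MttpLKO replicate 2 (0.079).

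Other members of the marker list were separated from the controls without passing the test. Gpc3, the glypican 3 gene of fetal liver and hepatocellular carcinoma, read 2.18, 3.33 and 2.98 CPM in control, 4.44, 6.88 and 12.4 in MttpLKO and 11.9, 10.8 and 9.22 in DKO (log2 1.69 ± 0.30 SE, edgeR adjusted p = 0.051). Afp, the alpha-fetoprotein gene, had 1.70, 3.18 and 2.11 CPM in control, 3.19, 5.92 and 13.1 in MttpLKO and 6.91, 3.26 and 6.06 in DKO (edgeR adjusted p = 0.34). Its lowest deleted pools lay just above the highest control. Tff3, a trefoil factor gene, and Ly6d, a surface protein gene, had log2 fold changes of 2.24 and 1.93 (edgeR adjusted p = 0.097 and 0.14), and Spp1, the osteopontin gene, and Anxa5 had 0.54 and 0.38. Outside that list Myc, a growth-promoting transcription factor gene kept with the immediate early genes, stood at 15.9, 9.92 and 9.71 CPM in control, 25.7, 24.4 and 33.3 in MttpLKO and 23.9, 58.7 and 30.9 in DKO. All deleted pools exceeded the controls, with DKO replicate 2 highest, but was not called (log2 1.46, edgeR adjusted p = 0.074).

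Among enzymes and transporters, Slc16a5, a gene of the monocarboxylate transporter family, rose in both genotypes. It read 8.54, 13.2 and 10.4 CPM in control, 33.6, 36.3 and 40.8 in MttpLKO and 22.6, 22.6 and 28.6 in DKO. The MttpLKO pools lay above the DKO pools and both above control (2.80-fold, log2 1.49 ± 0.15 SE, edgeR adjusted p = 0.0016), and it kept the call without each library in turn. Csad, which encodes cysteine sulfinic acid decarboxylase of taurine synthesis, was well expressed throughout, at 195, 263 and 298 CPM in control, 617, 574 and 426 in MttpLKO and 505, 467 and 410 in DKO. It rose 1.98-fold (edgeR adjusted p = 0.042). Abhd2, an alpha/beta hydrolase gene, rose by the same amount in both genotypes, at log2 1.02 in MttpLKO and 1.00 in DKO (edgeR adjusted p = 0.028). It read 45.6, 48.0 and 42.4 CPM in control against 70.5 to 116 in the deleted pools. Cpe, which encodes the prohormone-processing carboxypeptidase E, rose from 1.497, 0.833 and 1.27 CPM to 2.28, 3.79 and 4.90 in MttpLKO and 8.72, 9.77 and 12.7 in DKO (5.13-fold, edgeR adjusted p = 0.0068). Miox, the myo-inositol oxygenase gene typical of kidney, rose from 0.121 to 0.545 CPM in controls to 0.835 to 3.94 in deleted pools (edgeR adjusted p = 0.042).

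Leaving out a control ended the calls of Csad, Abhd2 and Miox each time, with edgeR adjusted p up to 0.191 for Csad, 0.203 for Abhd2 and 0.304 for Miox. Cpe lost it without control replicate 2 or 3 (0.057 and 0.064). Without DKO replicate 1 or 3 the adjusted p was 0.076 and 0.057 for Csad, 0.066 and 0.062 for Abhd2 and 0.099 and 0.080 for Miox. Csad and Miox also lost it without DKO replicate 2 (0.059 and 0.071) or MttpLKO replicate 2 (0.081 and 0.080), and Csad without MttpLKO replicate 1 (0.064).

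Asns, which encodes the asparagine synthetase that amino acid limitation and ER stress induce through the transcription factor ATF4, rose 4.29-fold. The controls held 4.73, 9.47 and 4.29 CPM, the MttpLKO pools 43.3, 26.6 and 21.3 and the DKO pools 33.5, 15.4 and 20.1. All deleted pools were above the highest control, DKO replicate 2 least so (log2 2.10 ± 0.35 SE, edgeR adjusted p = 0.042). The call was lost without control replicates 1, 2 and 3 (0.198, 0.054 and 0.271), MttpLKO replicates 1 and 2 (0.054 and 0.079) and DKO replicates 1 and 3 (0.066 and 0.068). Its promoter is shown because the ATF4 list was searched for the C/EBP-ATF response element, TGATGNAA on either strand, in windows from 250 bases before to 50 after each gene's start (RefSeq, GRCm38.p6). The capitals mark the match, which starts at -23 from the Asns start, in chr6:7693210-7693252 on the minus strand.
Asns: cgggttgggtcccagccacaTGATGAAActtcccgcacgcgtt
The element occurred in 3.97% of all 32851 windows and in 8 of the 23 ATF4-list genes with a window. Asns was the only called gene of the 23 tested in the list, by edgeR and DESeq2, and limma-voom called none. Among the 7 tested genes with the element 3 had positive fold changes. Fgf21, a hepatokine gene, and Trib3, a pseudokinase gene, both with the element, had log2 fold changes of -1.51 and -0.24 (edgeR adjusted p = 0.26 and 0.88), with groups that overlapped.

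The rest of the rises joined signalling, cell surface and matrix genes. Lrp6, the Wnt co-receptor gene, read 53.7, 53.2 and 54.7 CPM in control, 98.7, 111 and 95.2 in MttpLKO and 94.1, 76.0 and 117 in DKO. The control pools were nearly equal, and the rise was 1.83-fold (log2 0.87 ± 0.13 SE, edgeR adjusted p = 0.023). Galnt11, a glycosyltransferase gene that starts O-linked glycans, rose from 10.6, 9.96 and 10.8 CPM to 19.97, 21.4 and 18.8 in MttpLKO and 16.7, 14.8 and 19.7 in DKO (1.77-fold, edgeR adjusted p = 0.016). Col4a3, a basement membrane collagen chain gene, rose from 1.82, 1.67 and 1.89 CPM to 3.42, 3.24 and 5.93 in MttpLKO and 7.47, 7.11 and 9.58 in DKO (3.24-fold, edgeR adjusted p = 0.016). Each of these 3 lost the call without any single control, at edgeR adjusted p up to 0.156, 0.133 and 0.133, and Lrp6 without DKO replicate 1 (0.051).

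The remaining common rises were low throughout or uneven between genotypes, and 5 of them (Hoxc8, Erich4, Kif5c, Gucy2c and Wfdc12) passed the filter through deleted pools alone. Igdcc4, an immunoglobulin superfamily gene that the marker list holds as Nope, rose 6.67-fold (edgeR adjusted p = 0.016). It went from 0.445 to 0.606 CPM in controls to 1.77 to 5.66 in deleted pools. Cacna1b, a neuronal calcium channel gene, went from 0.0809 to 0.618 CPM to 1.37 to 7.81 (edgeR adjusted p = 0.048), and Kif5c, a kinesin heavy chain gene, from 0.162 to 0.227 CPM to 0.645 to 5.39 (edgeR adjusted p = 0.028). Hoxc8, a homeobox gene that patterns the trunk, had 1 count in the controls and 161 in the deleted pools, a ratio of 83.6 (95% exact counting interval 14.8 to 3323; edgeR adjusted p = 0.014). Erich4 had 8 and 251 counts, a ratio of 16.3 (8.14 to 38.2; edgeR adjusted p = 0.010). Wfdc12, a whey acidic protein family gene, had 14 and 228 counts, and Gucy2c, the intestinal guanylate cyclase C gene, 10 and 155 (edgeR adjusted p = 0.022 and 0.0497). These intervals cover counting error only. Tpmt, the thiopurine methyltransferase gene, and Pik3c2g, a class II phosphoinositide kinase gene, completed the 22, with their rises mostly in MttpLKO. Igdcc4, Cacna1b, Kif5c, Hoxc8, Erich4, Gucy2c and Pik3c2g each lost the call without any single control, with edgeR adjusted p up to 0.127, 0.315, 0.182, 0.102, 0.098, 0.311 and 0.311 in that order. Wfdc12 lost it without control replicates 1 and 3 (0.126 and 0.098) and MttpLKO replicate 2 (0.052). Among deleted pools, Kif5c lost it without DKO replicates 1 and 3 (0.066 and 0.058) and Cacna1b without MttpLKO replicate 2 or any DKO pool (0.077 to 0.096). Gucy2c did so without any deleted pool except DKO replicate 2 (0.061 to 0.099), and Pik3c2g without any except MttpLKO replicate 3 (0.057 to 0.079).

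Rpl34, a ribosomal protein gene, had a large fall of similar size in both genotypes. It read 55.9, 59.2 and 65.0 CPM in control, 4.40, 7.21 and 5.38 in MttpLKO and 4.62, 5.53 and 4.77 in DKO. The 6 deleted pools spanned a narrow range 11.3-fold under control (log2 -3.50 ± 0.13 SE, edgeR adjusted p = 6.4e-07), with no difference between genotypes past the test (log2 -0.19, edgeR adjusted p = 0.78). Ribosomal protein genes have many near-identical copies, and the sources used here do not say how reads matching several genes were handled, so this value is uncertain. Rpl34 lies on chromosome 3 at 130726831 to 130730398 and Mttp at 138089855 to 138143388. Of 139 genes tested within 20 Mb of Mttp these 2 were the ones called.

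Other falls included secreted and urinary proteins. Mup20, a male pheromone of the major urinary protein family, read 2095, 1669 and 1854 CPM in control, 1320, 1428 and 1390 in MttpLKO and 1143, 1129 and 990 in DKO. It fell 1.53-fold (log2 -0.61 ± 0.10 SE, edgeR adjusted p = 0.042), a value that the near-identical Mup genes make uncertain. Slc20a1, a sodium-phosphate cotransporter gene, fell 1.49-fold, from 57.2, 54.6 and 61.5 CPM to 42.7, 43.2 and 44.2 in MttpLKO and 37.8, 35.1 and 31.2 in DKO (edgeR adjusted p = 0.022). Mug2, a murinoglobulin gene for a plasma protease inhibitor, and Crygn, a crystallin gene, fell more in MttpLKO than in DKO. Crygn read 8.70, 6.10 and 8.11 CPM in control, 1.405, 1.03 and 1.25 in MttpLKO and 3.21, 3.00 and 3.70 in DKO (3.78-fold, edgeR adjusted p = 0.00039). Bmyc, a Myc-related gene, fell 2.39-fold, from 5.91, 8.90 and 13.9 CPM to between 3.00 and 5.23 (edgeR adjusted p = 0.049).

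Clec2h, a C-type lectin gene, read 26.0, 13.1 and 11.7 CPM in control and 0.110 to 0.184 in MttpLKO. DKO pools held 0.121, 8.23 and 1.69, so the pooled fall (edgeR adjusted p = 0.039) was uneven. The other 3 falls were of low genes that passed the filter through the 3 control pools alone. Naip6, of the NLR family of bacterial sensors, had 96 counts in control and 7 in deleted pools, and 0 in 5 of the 6 (edgeR adjusted p = 0.042). Asic3, an acid-sensing ion channel gene, had 81 and 13 (edgeR adjusted p = 0.024), and 1010001B22Rik 53 and 30 (edgeR adjusted p = 0.028). Mup20 lost the call without any library (edgeR adjusted p 0.054 to 0.241), Bmyc without any except control replicate 1 (0.072 to 0.276) and Clec2h without any except DKO replicates 1 and 2 (0.061 to 0.166). Slc20a1 lost it without any single control or MttpLKO replicate 2 (0.079 to 0.182). Asic3 lost it without DKO replicate 1 or 2 (0.058 and 0.059), 1010001B22Rik without MttpLKO replicate 2 or any DKO pool (0.051 to 0.079), and Naip6 without MttpLKO or DKO replicate 1 or 2 (0.061 to 0.079); without a control these 3 did not pass the filter.

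The genotypes differed in 7 of the 34 common changes and 27 did not pass that test. Its contrast uses no control, but the spread was estimated from all 9 pools. Over all genes DKO and MttpLKO differed in 59 (0.416%). Tpmt rose to 107, 90.3 and 91.0 CPM in MttpLKO and to 35.7, 39.2 and 42.0 in DKO, from 31.8, 32.8 and 31.1 in control (DKO minus MttpLKO log2 -1.30, edgeR adjusted p = 0.00017). Pik3c2g had the same order, at 13.9 to 16.7 CPM in MttpLKO, 7.39 to 9.00 in DKO and 5.85 to 7.23 in control (log2 -0.89, edgeR adjusted p = 0.024). Mug2 read 191, 217 and 228 CPM in control, 44.0, 24.2 and 22.1 in MttpLKO and 125, 172 and 131 in DKO (log2 2.24, edgeR adjusted p = 0.0023). In these 3 the MttpLKO pools lay farthest from control. Wfdc12 was instead highest in DKO, at 2.25 to 3.03 CPM against 0.418 to 0.552 in MttpLKO (log2 2.46, edgeR adjusted p = 0.012). Crygn, 1010001B22Rik and Fabp1 were the other 3. Of the 22 rises 12 were larger in DKO, and of the 12 falls 6 were.

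The 8 called genes that were not common show why the pools were also compared 1 by 1. C1rb and C1s2, complement protease genes, and Gm13394 were high in MttpLKO alone (29.8 to 33.2, 37.4 to 40.3 and 69.7 to 92.4 CPM) and under 0.5 CPM in control and DKO, so they passed the filter through MttpLKO pools alone and had to differ. Htra2, a mitochondrial protease gene, Zfp949 and Nt5e were highest in DKO. Gadd45gip1 and Obp2a were lowest in MttpLKO. For 7 of the 8, Obp2a being the exception, DKO and MttpLKO differed past the test, these 3 included.

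**Figure D3:**
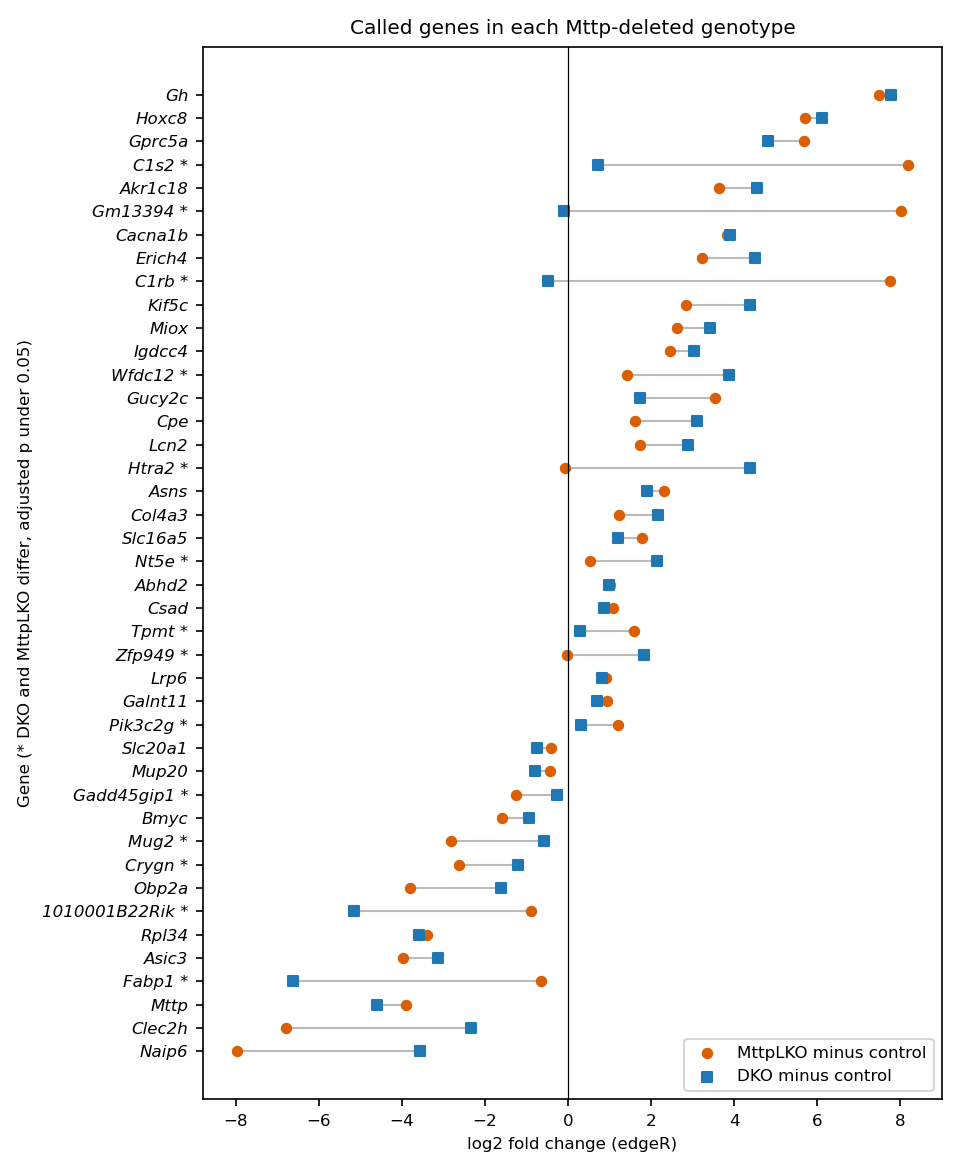
Log2 fold change against control of the 42 called genes (rows) in MttpLKO (circles) and DKO (squares), joined by a line, with a star where the 2 genotypes differed (edgeR adjusted p under 0.05). Both sets of points share the 3 control pools, and fitted values of genes with no or few counts in a genotype (Naip6, Hoxc8, 1010001B22Rik) depend on the prior count. Gh, Rpl34, Abhd2 and Lrp6 have nearly coincident points, while C1s2, C1rb and Gm13394 lie near 8 in MttpLKO and near 0 in DKO.

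Genes of ER protein folding mostly had positive fold changes, none past the test. The unfolded protein response raises chaperones when proteins accumulate unfolded in the ER, through ATF6, XBP1 and ATF4. Of 25 tested members edgeR called 0, limma-voom 0 and DESeq2 5 higher. An unadjusted p under 0.05 was found in 15 (60.0%, against 9.1% of all genes), all with positive fold changes. Positive fold changes made up 22 of 25 (88.0%, against 49.0% of all genes). The median log2 fold change was 0.38, with 0.27 in MttpLKO and 0.49 in DKO, and ranged from 0.30 to 0.46 without each library in turn. In 6 members (24.0%, against 2.06% of all genes) all deleted pools exceeded all controls: Hspa5, Pdia4, Derl3, Hsp90b1, Dnajc3 and Dnajb11. This list too was chosen with earlier results of these data known, so its shares are no test. The pool medians were -0.121 to 0.144 in control, 0.179 to 0.326 in MttpLKO and 0.267 to 0.698 in DKO, relative to the control mean.

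Hspa5, which encodes BiP, the main ER chaperone, read 418, 310 and 306 CPM in control, 464, 486 and 611 in MttpLKO and 732, 476 and 585 in DKO. Control replicate 1 came closest to the deleted pools (log2 0.69 ± 0.17 SE, edgeR adjusted p = 0.17). Derl3, of the machinery that exports misfolded proteins from the ER, read 4.45, 4.05 and 4.62 CPM in control, 6.26, 5.71 and 6.56 in MttpLKO and 24.9, 7.71 and 20.8 in DKO. DKO replicates 1 and 3 set most of its log2 fold change of 1.26 (edgeR adjusted p = 0.19). Hsp90b1 (GRP94) and Dnajc3 (the co-chaperone p58IPK) had log2 fold changes of 0.41 and 0.45 (edgeR adjusted p = 0.36 and 0.31), Pdia4, a disulfide isomerase gene, 0.58 and Dnajb11, a BiP co-chaperone gene, 0.48 (edgeR adjusted p = 0.21 and 0.14). Ern1, which encodes the sensor IRE1, had -0.17 (edgeR adjusted p = 0.78).

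The promoter windows of these genes are shown because the list shares a sequence that the measurements did not use. The ER stress response element, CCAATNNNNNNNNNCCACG on either strand, was found in 39 of 32851 windows (0.119%) and in 9 of the 21 list genes with a window: Calr, Canx, Creld2, Derl3, Dnajc3, Hsp90b1, Hspa5, Pdia6 and Syvn1. The element was first described in promoters of such chaperone genes, so its presence in this list is background. The 4 genes with both the element and separated pools are printed 5′ to 3′ on the gene's strand (RefSeq, GRCm38.p6), with the element in capitals. Derl3 and the second Hsp90b1 copy hold it in reverse orientation. The stretches are chr2:34772005-34772063 (plus strand) for Hspa5, chr10:75893222-75893280 (plus) for Derl3, chr14:118937807-118937865 (plus) for Dnajc3, and chr10:86705618-86705676 and chr10:86705513-86705571 (both minus) for Hsp90b1.
Hspa5: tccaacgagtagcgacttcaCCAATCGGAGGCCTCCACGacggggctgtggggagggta
Derl3: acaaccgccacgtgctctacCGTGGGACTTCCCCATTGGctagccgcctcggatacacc
Dnajc3: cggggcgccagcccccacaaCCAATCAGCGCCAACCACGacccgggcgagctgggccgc
Hsp90b1, distal: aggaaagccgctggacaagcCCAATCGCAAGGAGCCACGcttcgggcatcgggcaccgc
Hsp90b1, proximal: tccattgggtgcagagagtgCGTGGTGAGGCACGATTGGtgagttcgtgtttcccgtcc
The 9 genes with the element all had positive fold changes, with a median of 0.41, and 4 of them were separated. The 12 without a match had a median of 0.22, with 9 positive and 2 separated. Both sets are small and the difference between them was not tested.

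**Figure D4:**
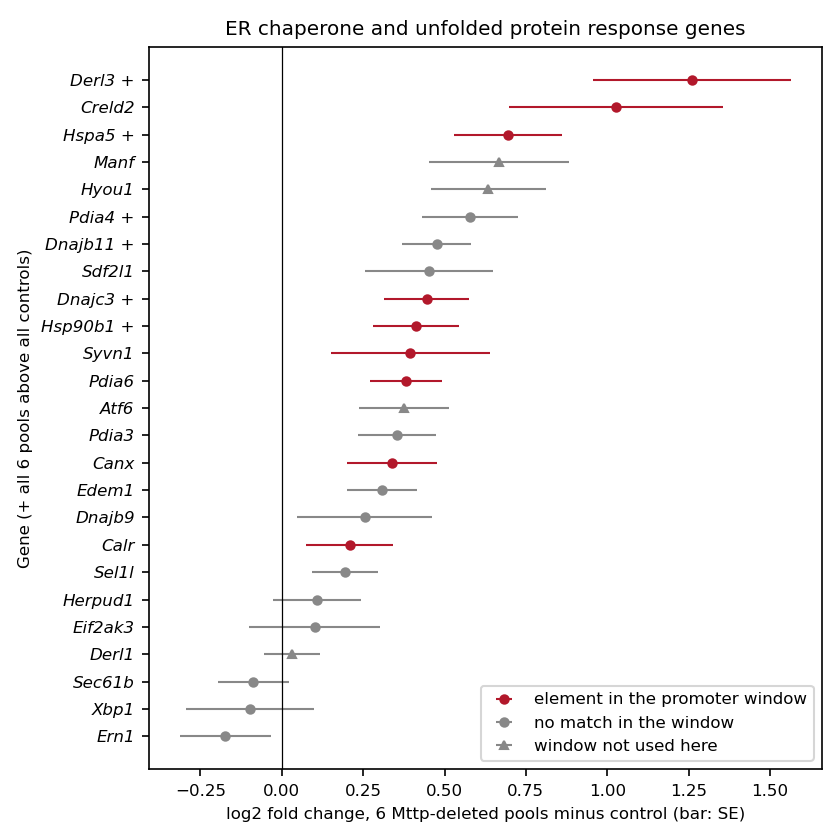
Log2 fold change of the 25 ER chaperone and unfolded protein response genes (rows) in the 6 deleted pools against control, with SE bars, red where the ER stress response element was found in the promoter window, grey where it was not, and a triangle where no window was used. A plus marks the 6 genes with all deleted pools above all controls; Derl3 and Creld2 are highest at 1.26 and 1.03 and Ern1 lowest at -0.17.

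No gene of the lipid handling lists beside Mttp and Fabp1 passed edgeR's test. Of 23 VLDL assembly and export genes Mttp was the only one called by edgeR, DESeq2 or limma-voom, with a list median of 0.036 (-0.018 without control replicate 3). Apob, the protein partner of the transfer protein, stood at 1965, 1901 and 1806 CPM in control, 2169, 1875 and 1656 in MttpLKO and 2105, 1714 and 2443 in DKO. The groups overlapped (log2 0.08 ± 0.13 SE, edgeR adjusted p = 0.91). Of 20 apolipoprotein genes edgeR and limma-voom called 0 and DESeq2 1 higher, 1 had an unadjusted p under 0.05, and 16 had negative fold changes (median -0.10, and -0.05 without DKO replicate 3). Apom, an apolipoprotein of HDL, was the 1 separated member, barely so, at 85.5 to 123.1 CPM in control and 123.1 to 206 in deleted pools (log2 0.63, edgeR adjusted p = 0.27). Of 24 lipid droplet genes, which coat, fuse and mobilise droplets, none was called by edgeR, DESeq2 or limma-voom and 0 had an unadjusted p under 0.05. Their medians were -0.06 in MttpLKO and 0.19 in DKO.

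Synthesis and oxidation of fatty acids had medians of opposite sign. Of 27 synthesis genes edgeR and limma-voom called 0 and DESeq2 1 lower. An unadjusted p under 0.05 was found in 5 (18.5%, against 9.1% of all genes), 2 of them higher and 3 lower. The median was -0.10 with 18 negative, and -0.06 without DKO replicate 2. Scd1, the stearoyl-CoA desaturase gene, read 2125, 1842 and 1371 CPM in control, 855, 517 and 1435 in MttpLKO and 1022, 648 and 722 in DKO. MttpLKO replicate 3 overlapped the lowest control (log2 -1.04 ± 0.27 SE, edgeR adjusted p = 0.22). Fasn, the fatty acid synthase gene, and Acaca, the acetyl-CoA carboxylase gene, had -0.67 and -0.46 (edgeR adjusted p = 0.50 and 0.36). Of 42 oxidation genes and PPARalpha targets edgeR and limma-voom called 0 and DESeq2 3 higher. An unadjusted p under 0.05 was found in 11 (26.2%), 10 of them higher, and 36 were positive (85.7%, median 0.13). Over all genes these shares were 9.1% and 49.0%. The pool medians of MttpLKO replicate 3 and DKO replicate 1, -0.122 and 0.046, lay within the control range of -0.154 to 0.096. Acot3, a peroxisomal acyl-CoA thioesterase gene, read 9.51, 11.5 and 13.5 CPM in control, 29.9, 32.4 and 32.2 in MttpLKO and 11.8, 38.0 and 28.7 in DKO. DKO replicate 1 fell within the controls while the other 5 deleted pools lay above (log2 1.32, edgeR adjusted p = 0.14). Cyp4a14, a fatty acid hydroxylase gene, ranged from 170 to 954 CPM within the controls alone. Of 29 cholesterol synthesis genes none was called by the 3 tools, 1 had an unadjusted p under 0.05 and the median of 0.06 was -0.06 without MttpLKO replicate 1.

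**Figure D5:**
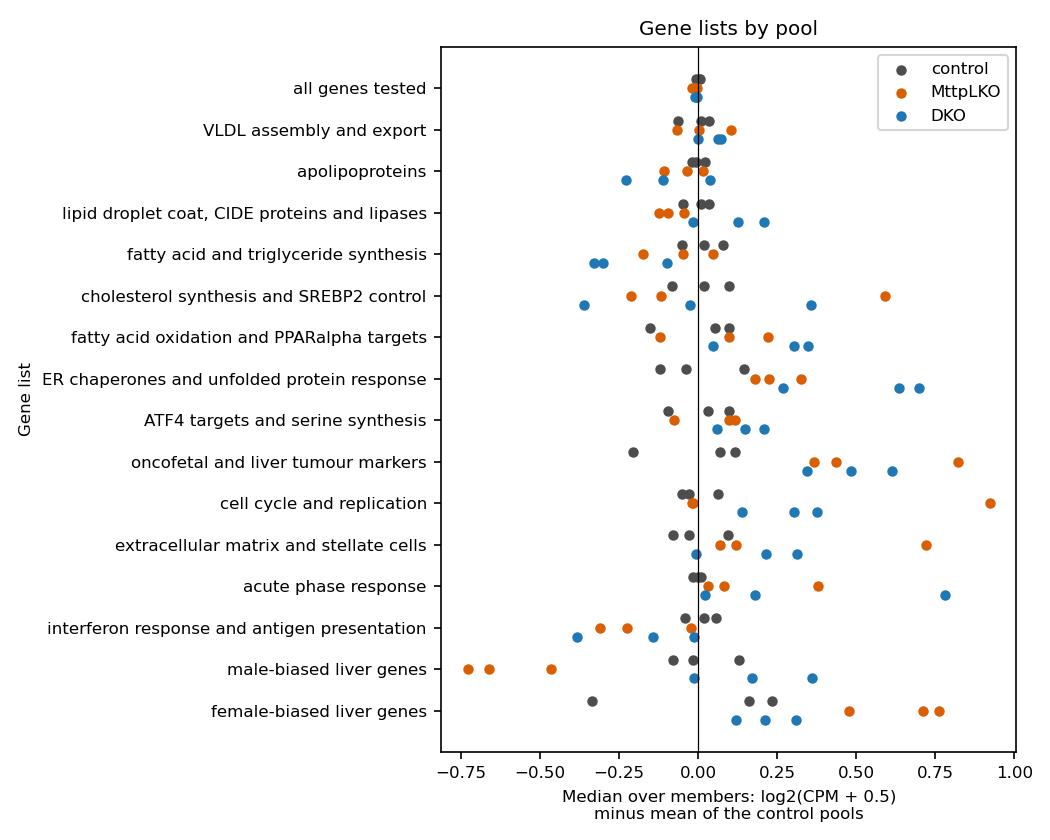
Median over the tested members of 15 gene lists, and of all genes, of log2(CPM + 0.5) minus the mean of the control pools (horizontal axis), 1 point per pool coloured by genotype. For the ER list and the oncofetal and tumour list all 6 deleted pools lie right of all controls, while male-biased genes lie left in MttpLKO alone and the cell cycle and matrix lists have 1 far MttpLKO pool, replicate 3.

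Liver genes with a sex bias gave 1 common change. Of 28 male-biased genes Mup20 alone was called by edgeR, and DESeq2 called 1 lower and limma-voom 0. In the list 8 had an unadjusted p under 0.05 (28.6%, against 9.1% of all genes), 7 of them lower. Negative fold changes were found in 23 of 28 (51.0% of all genes). Mup20, Mup3 and Slco1a1, 3 members (10.7%, against 2.49% of all genes), had all deleted pools below all controls. Both sex-biased lists were chosen with earlier results of these data known, so their shares are no test. Pool medians were -0.73 to -0.466 in MttpLKO but -0.013 to 0.361 in DKO, and 8 members differed between DKO and MttpLKO (edgeR), all higher in DKO. Mup7, another urinary protein gene, read 189 to 226 CPM in control, 76.2 to 81.8 in MttpLKO and 131 to 313 in DKO, and Cyp4a12a, a fatty acid hydroxylase gene, 306 to 320, 186 to 243 and 378 to 390. In both genes every DKO pool lay above every MttpLKO pool. Slco1a1, an organic anion transporter gene, was separated at 175 to 194 CPM in control and 113 to 166 in deleted pools, and was not called (log2 -0.36, edgeR adjusted p = 0.36). Of 21 female-biased genes edgeR and limma-voom called 0 and DESeq2 4 higher. An unadjusted p under 0.05 was found in 9 (42.9%, against 9.1% of all genes), 7 of them higher. Trim24, Cyp2a4, Rtn4 and Abcd2, 4 of the 21 (19.05%, against 2.06% of all genes), were separated upward. Abcd2, a peroxisomal fatty acid transporter gene, had log2 1.15 (edgeR adjusted p = 0.074). Cyp2a4, a steroid hydroxylase gene, read 13.5, 49.3 and 34.2 CPM in control, 83.0, 71.3 and 207 in MttpLKO and 109, 147 and 193 in DKO (log2 2.05, edgeR adjusted p = 0.13). The female-biased median of 0.46 was 0.19 without control replicate 1. It was 0.61 in MttpLKO and 0.17 in DKO. Relative to the control mean, pool medians were 0.477 to 0.761 in MttpLKO and 0.118 to 0.308 in DKO. The DKO pools overlapped the controls, which reached 0.234.

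Acute phase genes, secreted by hepatocytes in inflammation, had Lcn2 as their 1 call of 33 by edgeR, DESeq2 calling 3 higher and limma-voom 1 higher. The median was 0.26 with 29 positive (87.9%, against 49.0% of all genes). Il1rn, the interleukin 1 receptor antagonist gene, was separated at 1.90, 3.41 and 2.04 CPM in control, 6.64, 4.93 and 9.14 in MttpLKO and 7.19, 4.84 and 12.6 in DKO (log2 1.62, edgeR adjusted p = 0.10). Apcs, the serum amyloid P gene, was separated too (log2 0.53, edgeR adjusted p = 0.36). Saa1, a serum amyloid A gene, was not: it read 530, 46.3 and 735 CPM in DKO, 33.7, 117 and 41.2 in MttpLKO and 53.1 to 64.4 in control. Interferon response and antigen presentation genes mostly had negative fold changes. Of 41, edgeR and limma-voom called 0, DESeq2 1 lower, 7 had an unadjusted p under 0.05, all lower, and 33 were negative (51.0% of all genes were; list median -0.17, and -0.10 without MttpLKO replicate 2). In 5 of them, Gbp3, Irf7, Mx2, Ifit3 and Ifit1 (12.2%, against 2.49% of all genes), all deleted pools lay below all controls. The list was chosen with earlier results of these data known, so this share is no test. The list medians of MttpLKO replicate 3 and DKO replicate 1, -0.024 and -0.014, lay within the control range of -0.042 to 0.056. Irf7, an interferon regulatory transcription factor gene, read 66.4, 55.5 and 66.1 CPM in control, 53.3, 49.6 and 35.7 in MttpLKO and 50.5, 50.1 and 40.9 in DKO (log2 -0.42, edgeR adjusted p = 0.36).

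The medians of matrix and proliferation genes depended in part on MttpLKO replicate 3. Of 40 extracellular matrix and stellate cell genes edgeR and limma-voom called 0 and DESeq2 1 higher. An unadjusted p under 0.05 was found in 9 (22.5%, against 9.1% of all genes), and 39 were positive (97.5%, against 49.0%). The median of 0.27 was 0.16 without MttpLKO replicate 3. Reln, expressed by stellate cells, was separated at 32.6, 34.1 and 36.9 CPM in control, 44.4, 59.6 and 79.9 in MttpLKO and 53.6, 49.4 and 45.8 in DKO (log2 0.68, edgeR adjusted p = 0.16). Dpt, Fbln2 and Spp1 were the other separated members. Of 36 cell cycle genes none was called by the 3 tools and 2 had an unadjusted p under 0.05. Their median of 0.43 was 0.13 without MttpLKO replicate 3. In 32 of 36 the fold change was positive (88.9%, against 49.0% of all genes). Relative to the control mean, control pool medians were -0.05 to 0.062. They were -0.018, -0.021 and 0.924 in MttpLKO and 0.376, 0.137 and 0.304 in DKO. Every DKO pool lay above all controls, while MttpLKO replicates 1 and 2 lay within their range. Summed levels of the 40 listed genes were 139.0 to 212.2 CPM in deleted pools and 121.7 to 135.3 in controls. Mki67, a marker of dividing cells, read 1.33, 1.51 and 1.42 CPM in control, 0.721, 1.03 and 9.28 in MttpLKO and 4.66, 1.58 and 4.68 in DKO. B, plasma, T and NK cell genes had a median of 0.58 over 13 tested, and of -0.26 without MttpLKO replicate 3. None of them was called by the 3 tools and 2 had an unadjusted p under 0.05.

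The called genes were not spread evenly over the chromosomes. Chromosome 6 held 11 of the 42, although it carries 5.003% of the genes tested, and chromosome 2 held 8 (8.01%). On chromosome 6, 8 of the called genes, 6 of them common, had starts between 122006798 and 139587221, a stretch with 127 tested genes (0.895%): Mug2, C1rb, C1s2, Clec2h, Lrp6, Gprc5a, Gucy2c and Pik3c2g. Fabp1, at 71199827, lies outside it. The ends of the stretch were set at the called genes Mug2 and Pik3c2g, so its share of tested genes is not an independent background. Asic3, Crygn and Galnt11 lie close together on chromosome 5, between 24413451 and 25265918, and Obp2a and Bmyc are neighbours on chromosome 2. In all 13 of the 42 lay within 1 Mb of another called gene. The same count was not made for other sets of tested genes, so it has no background. Coordinates are as the deposited tables give them, and what these positions share was not tested.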

How the data were processed

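Polyadenylated liver RNA from 9 pools, each of 3 mice, was measured as reads per gene. The authors deposited whole-number read counts, not normalized, for 41388 genes per library, per the file headers. The authors' CPM and RPKM in the same tables were recomputed from the counts to within 5.1e-11 and 4.7e-11, and these deposited CPM and RPKM values entered no test. The submitters' processing notes name the tools STAR 2.0.4b, featureCounts 1.4.5 and Subread. The sources used here give no genome build, annotation, strand setting or handling of multiply matching reads; 97.47% of identifiers matched GENCODE M21 (GRCm38), 82.17% of those with the same start. Sequences are RefSeq promoter windows of GRCm38.p6.

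Genes with a CPM of at least 0.5 in 3 or more libraries (14192) were scaled by TMM and tested in edgeR 4.0.16 (R 4.3.3) with the quasi-likelihood F test, in a single model with a mean for each genotype; p-values were adjusted by Benjamini-Hochberg and called under 0.05. The biological coefficient of variation was 18.2% (common dispersion 0.033). The same fit gave MttpLKO and DKO against control and DKO against MttpLKO. Counts were simulated for the main comparison with edgeR's own spread estimates, and 13995 genes were tested. The changed genes were well counted and changed alike in both deleted genotypes. There edgeR called 83% at a 2-fold change and 100% at a 4-fold change, with 9 false of 192 calls. DESeq2 made 30 false of 222. These rates need not hold for genes with few counts or uneven changes. Replicates differed beyond counting noise, so no library was counted as a repeat.

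The members, the 41 gene lists and the rule for named genes were chosen with earlier results of these data known. By that rule Mttp and Fabp1 were named, with the 10 largest common rises and falls with a mean of at least 5 CPM on 1 side and a symbol that is not a clone name, up to 3 called members of each list or else its member of smallest p, and called genes within 20 Mb of Mttp. The other called genes and list members were named after their values were seen. Alternatives were RLE and upper quartile scaling, other filters on low counts, limma-voom (limma 3.58.1), DESeq2 1.42.0, 2 groups in place of 3 genotype means, a replicate block, removal of the 20 most abundant genes, and leaving out each library.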

Additional observations from a re-analysis of the deposited data

Results flagged for a closer look

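Among the 34 common changes, 2 had a Mttp-deleted pool far from the other 5, by a gap over 0.625 of the range; chance flags about 1 in 20 genes. Clec2h read 8.23 CPM in DKO replicate 2, with 1.69 in the next highest, and Naip6 read 0.312 CPM in DKO replicate 3, with 0 in the other 5 deleted pools.

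DKO and MttpLKO, which differ in Fabp1, differed in 14 of the 42 called genes (edgeR, DKO minus MttpLKO, adjusted p under 0.05). Over all 14192 genes tested, 59 (0.416%) did. The 42 were called on the mean of the 2 genotype effects, so genes moved in 1 genotype alone could enter. The 2 counts are therefore not a like comparison. The log2 difference was -8.13 for Gm13394, -7.48 for C1s2, -8.24 for C1rb, -5.98 for Fabp1, -4.26 for 1010001B22Rik, -1.3 for Tpmt and -0.89 for Pik3c2g. It was 4.45 for Htra2, 2.46 for Wfdc12, 2.24 for Mug2, 1.87 for Zfp949, 1.6 for Nt5e, 1.42 for Crygn and 0.99 for Gadd45gip1. Fabp1 is deleted in DKO by design, and 1010001B22Rik had 1 count over the DKO pools. Gm13394, C1s2 and C1rb passed the filter on low counts through the 3 MttpLKO pools alone, so these had to differ.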

How the results depend on the processing

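With all libraries 28 genes were called higher and 14 lower, and 22 and 12 were common changes. Without a filter beyond 1 count the calls were 106 higher and 59 lower and the common changes 72 and 36. With DESeq2 they were 132 and 65, and 93 and 51. On simulated counts DESeq2 made more false calls than edgeR, but those counts were drawn with edgeR's own spread estimates. With limma-voom 18 were called higher and 13 were common rises. With 2 groups in place of 3 genotype means both pairs were 7 and 3. Requiring a CPM of 1 left 9 called lower. Leaving out 1 library at a time, genes called higher ranged from 6 to 33, called lower from 5 to 16, common rises from 3 to 29 and common falls from 5 to 15. Common rises and falls were 4 and 8, 5 and 5, and 3 and 5 without control replicates 1, 2 and 3, and 12 and 8 without DKO replicate 3. Common falls were 6 without MttpLKO replicate 2 and 7 without DKO replicate 1. Leaving out a control left 31 of the 34 common genes past the filter, and 10, 9 and 8 of them were still common. Under RLE scaling, filterByExpr, no filter and removal of the 20 most abundant genes all 34 remained common. Of 2101 values of named genes under the alternatives, 0 changed sign, 233 lost the call and 57 gained it. The median of all genes moved between -0.013 and 0.014. Pools with the same replicate number did not deviate together (correlations of -0.246 to 0.087), so the numbers were not taken to pair pools; a fit with a replicate block called 27 higher and 10 lower, and 24 of the 34 common changes remained common. DKO pools were the shallowest, and genes with under 1 CPM in both groups rest on few counts.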
